A study of Arabidopsis thaliana with 12 samples.

Results

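Untreated seedlings of the Arabidopsis thaliana line gmi1-1 were set against untreated wild-type seedlings over all loci of the table, which takes 6 of the 12 arrays of the series. The members are the 3 arrays labelled gmi1-1 untreated and the 3 arrays labelled wild type untreated, chosen by their labels. The choice to test replicates 2 and 3 on their own as well, given below, did rest on measured values. All seedlings were of the Col-0 ecotype, grown on plates in continuous light and 5 days old. The line gmi1-1 (SALK_036931) is a single T-DNA insertion line, so a change found in it cannot be told apart from a change caused by another difference of that line. The other 6 arrays hold gmi1-1 and wild-type seedlings harvested 1.5 h after 100 Gy of gamma rays, and they enter below to share the estimate of the spread and as arrays on which the untreated differences could be looked up again. The study was designed to ask if loss of GMI1 alters gene expression after gamma rays, and the untreated comparison shows the mutant before that treatment.

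GMI1 encodes a protein with a hinge domain like that of structural maintenance of chromosomes (SMC) proteins and is known as a gene of somatic homologous recombination. Its transcript is known to be induced by double-strand breaks through the kinase ATM. ATM signals through the transcription factor SOG1, which switches on repair genes such as BRCA1 and cell cycle inhibitors such as SMR5, while genes of mitosis are turned down. Cells without breaks keep this programme low.

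All values are log2 expression as deposited. Over the 12 arrays, medians lay between 4.23 and 4.81. Loci were tested with limma in 2 fits: 1 with all 12 arrays (9889 loci, replicates 1 to 3) and 1 with the 8 arrays numbered 2 and 3 (9925 loci). The words rose and fell are used of a single locus only at an adjusted p under 0.05. The second fit is needed because 1 of the 3 mutant libraries did not look untreated.

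The library labelled gmi1-1 untreated replicate 1 carried damage-induced transcripts far above the other untreated arrays. On a scale where wild type irradiation runs from 0 to 1, over the 317 loci that rose in wild type, it stood at 0.536, against 0.02 and 0.01 in gmi1-1 untreated replicates 2 and 3 and -0.023 to 0.012 in untreated wild type. The library labelled gmi1-1 irradiated replicate 1 stood at 0.453, below it, and the other 5 irradiated arrays at 0.829 to 1.124. The wild-type arrays set this scale, so their own places near 0 and 1 follow from it, and only the gmi1-1 places are free. XRI1 (AT5G48720), known from its induction by X-rays, had 11.91, 4.81 and 4.52 in gmi1-1 untreated replicates 1, 2 and 3, against 4.45, 4.39 and 4.71 in untreated wild type. SMR5 (AT1G07500), which holds back cyclin-dependent kinases, had 9.78, 2.43 and 2.86 in gmi1-1, against 2.29, 2.38 and 2.26 in wild type. In both genes the replicate 1 library alone was high, and gmi1-1 replicates 2 and 3 lay close to the wild-type arrays. PARP2 (AT4G02390), a poly(ADP-ribose) polymerase, had 11.41, 4.14 and 5.13 in gmi1-1, against 5.24, 4.97 and 5.47 in wild type. CYCB1;1 (AT4G37490), a cyclin known to rise after damage, had 9.45, 4.99 and 5.07 in gmi1-1, against 5.16, 5.42 and 5.47 in wild type.

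**Figure D1:**
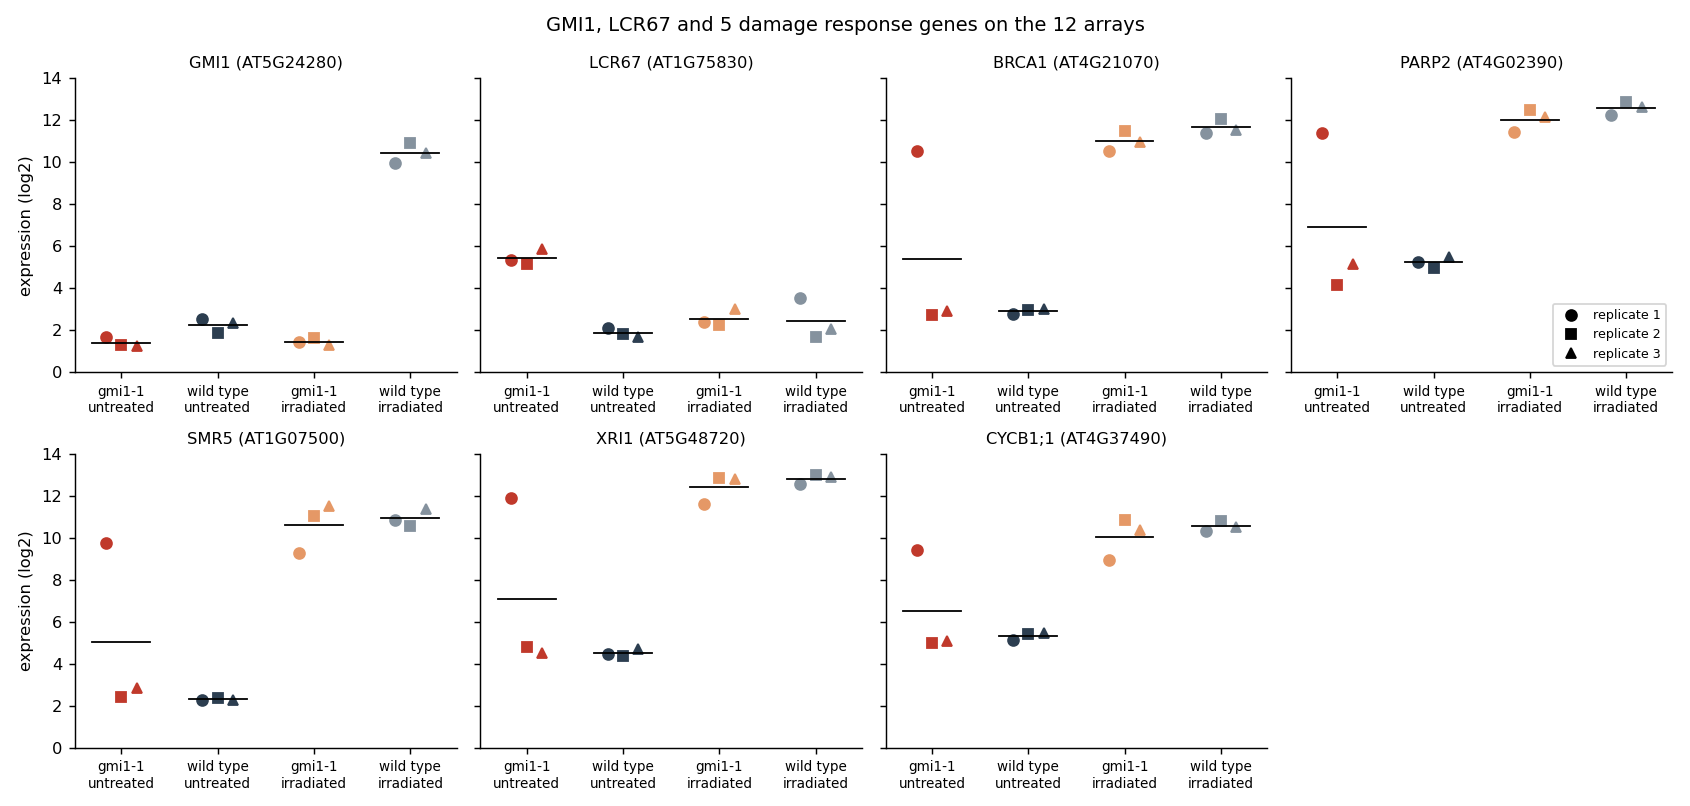
Log2 expression of GMI1, LCR67 and 5 damage response genes (y axis) on each of the 12 arrays, by group (x axis); the marker shape gives the replicate number and the line the mean of 3 arrays. The library labelled gmi1-1 untreated replicate 1 is high for the 5 damage response genes (BRCA1 at 10.54) and low for GMI1 (1.66), while its LCR67 value (5.36) lies with those of gmi1-1 untreated replicates 2 and 3.

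Because of that library the damage response genes differ between the fits. Of 21 listed genes 19 were tested in each, and their median difference, gmi1-1 minus wild type, was 1.43 with replicates 1 to 3 and -0.17 with replicates 2 and 3, where the medians over all loci were -0.09 and -0.08. BRCA1 (AT4G21070), a repair gene, differed by 2.47 with replicates 1 to 3 and by -0.17 with replicates 2 and 3. None of the 19 passed limma's test in either fit (smallest adjusted p = 1 in both), against 0.0101% of all loci called in each. With replicates 2 and 3 the differences of the 19 genes ran from -0.58 to 0.79, the highest being that of SIP4 (AT2G30360), a calcium sensor-interacting protein kinase, at 5.12 and 5.59 in gmi1-1 against 3.99 and 5.13 in wild type.

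GMI1 (AT5G24280) itself was near the bottom of the scale in both genotypes without irradiation. Its probe set had 1.66, 1.31 and 1.24 in gmi1-1 replicates 1, 2 and 3, against 2.53, 1.87 and 2.34 in wild type. The groups did not overlap, but all 6 values lay near or below the lower quartile of their arrays, which was 2.06 to 2.25. The difference was -0.84 with replicates 1 to 3 (95% interval -1.43 to -0.26) and -0.83 with replicates 2 and 3 (-1.48 to -0.18), and neither passed limma's test (adjusted p = 1 in both). After irradiation the same probe set had 1.44, 1.6 and 1.29 in gmi1-1, against 9.97, 10.92 and 10.46 in wild type, a difference of -9.24 with replicates 2 and 3 (SE 0.28, limma adjusted p = 2.9e-06), whose size is approximate because gmi1-1 lay under the lower quartile of its arrays. Since the probe positions are not known here, a partial transcript outside them would go unseen.

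LCR67 (AT1G75830) was the only locus that passed, and it rose in both fits. It is also named PDF1.1 and encodes a plant defensin, one of the small, secreted, cysteine-rich proteins known for activity against fungi. Its log2 values were 5.36, 5.15 and 5.86 in gmi1-1 replicates 1, 2 and 3, against 2.1, 1.83 and 1.65 in wild type. The 3 mutant arrays were therefore alike, including the library with the irradiation-like state, and all lay far above wild type, where the values were below the arrays' lower quartile.

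LCR67 averaged 5.46 ± 0.36 in gmi1-1 and 1.86 ± 0.23 in wild type (SD, n = 3 each). The difference was 3.60 with replicates 1 to 3 (SE 0.42, 95% interval 2.69 to 4.51, limma adjusted p = 0.0205) and 3.76 with replicates 2 and 3 (SE 0.35, 2.96 to 4.57, adjusted p = 0.0306). Each fit thus called 1 locus, or 0.0101% of those tested, and 0 fell. Since wild type lay near background, where the authors' summary compresses values, the size is approximate. In whole seedlings, more LCR67 RNA per cell and more cells of a kind that holds it cannot be told apart. LCR67 passed the filter on low values only through the 3 untreated gmi1-1 arrays, the only arrays on which it reached 4. With no filter, over 16947 loci, it was again the only locus called (limma adjusted p = 0.0201 with replicates 1 to 3 and 0.0285 with replicates 2 and 3).

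The LCR67 call rests on few arrays and is close to the threshold. Its difference lay between 3.40 and 4.12 whichever untreated array was left out, but limma's adjusted p crossed 0.05 for most of them. With replicates 1 to 3 it was 0.0846, 0.163 and 0.184 without wild type replicate 1, 2 or 3, and with replicates 2 and 3 it was 0.298 and 0.424 without wild type replicate 2 or 3. Without gmi1-1 replicate 1, 2 or 3 and with no filter it was 0.0484, 0.0845 and 0.191, and with replicates 2 and 3 it was 0.125 and 0.245 without gmi1-1 replicate 2 or 3. It was 0.0666 and 0.0959 in the 2 fits with the arrays centred on their medians, and in the second fit 0.18 with quantile normalization and 0.134 with the untreated arrays alone. Leaving out gmi1-1 irradiated replicate 1 or 3 gave 0.0558 and 0.062 with replicates 1 to 3, and leaving out replicate 3 gave 0.122 with replicates 2 and 3.

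In irradiated seedlings LCR67 was low in both genotypes. The values were 2.38, 2.22 and 2.99 in irradiated gmi1-1, against 3.54, 1.68 and 2.06 in irradiated wild type, and the groups overlapped. With replicates 2 and 3 the irradiated difference was 0.74 (95% interval -0.07 to 1.54). The test of the change between the treatments gave -3.03 (SE 0.50), with an unadjusted p of 0.000225 in limma and an adjusted p of 0.979 over all loci, so it did not pass. The library labelled gmi1-1 untreated replicate 1 kept a high LCR67 value (5.36) while its damage genes were high, whereas the library labelled gmi1-1 irradiated replicate 1, which resembled it on most loci (120 differed by more than 1), had 2.38.

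Other defensin genes were looked up after LCR67 had been seen. RefSeq names 89 genes of the LCR and PDF families, of which 15 were on the array, and most were too low to be tested. LCR69 (AT2G02100) had 13.11, 13.15 and 13.07 in gmi1-1, against 13.21, 13.03 and 13.1 in wild type. The other tested members differed by -0.06 (PDF1.4), -0.04 (LCR68), 0.03 (PDF2.1) and 0.28 (PDF2.5) with replicates 2 and 3. LCR66, under the filter, had 2.86, 2.46 and 2.58 in gmi1-1, against 2.2, 2.24 and 2.33 in wild type. LCR80, also under it, had 2.38, 2.16 and 2.12 against 2.05, 1.77 and 1.89. In both every mutant array lay above every wild-type array, as in 1.3% of the loci tested, although all values were low. In the other members under the filter the groups overlapped. PDF1.2 (AT5G44420), the defensin widely used as a jasmonate and ethylene marker, stayed low without irradiation, at 3.07, 2.54 and 3.58 in gmi1-1 against 2.80, 3.76 and 3.31 in wild type. The jasmonate regulator MYC2 (AT1G32640) differed by 0.11 and PAD3 (AT3G26830), of camalexin synthesis, by -0.26 with replicates 2 and 3.

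No other locus passed, and the loci next in rank are given as values. With replicates 1 to 3 the second smallest adjusted p in limma was 1, and with replicates 2 and 3 it was 0.208. At an unadjusted p under 0.05 there were 42 loci with replicates 1 to 3 (0.425%), of which 17 were higher and 25 lower in gmi1-1, and 181 with replicates 2 and 3 (1.82%), of which 48 were higher and 133 lower. Both shares are under the 0.05 that this cut would pass by itself if no locus differed, so the counts do not measure how many loci differ. They depend on the arrays that share the spread, and with the untreated arrays alone they were 295 and 1326. The counts also move with single arrays. The 42 became 112 without gmi1-1 untreated replicate 1, 81 without replicate 3, 96 without wild type untreated replicate 1 and 18 without replicate 3, and 84 and 107 without gmi1-1 irradiated replicate 1 or 3. The 181 became 53 without gmi1-1 untreated replicate 2, 111 and 32 without wild type untreated replicate 2 or 3, and 494 without gmi1-1 irradiated replicate 3. By size, 59 loci were higher by 1 or more (0.597%) and 15 lower by 1 or more (0.152%) with replicates 1 to 3, and 23 (0.232%) and 48 (0.484%) with replicates 2 and 3. The lean of all loci to lower values in gmi1-1 depends on the scaling of the arrays. Their median difference in the 2 fits was -0.09 and -0.08 as deposited. It was -0.07 and -0.05 with median centring, and -0.01 and 0 with quantile normalization. A typical locus had a 95% interval of ± 0.63 in the first fit and ± 0.70 in the second. A difference much smaller than that could not be seen. These intervals are not adjusted over all loci, and far larger differences also went uncalled. EXPA8, for example, differed by 2.05 with replicates 2 and 3 (limma adjusted p = 0.208).

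**Figure D2:**
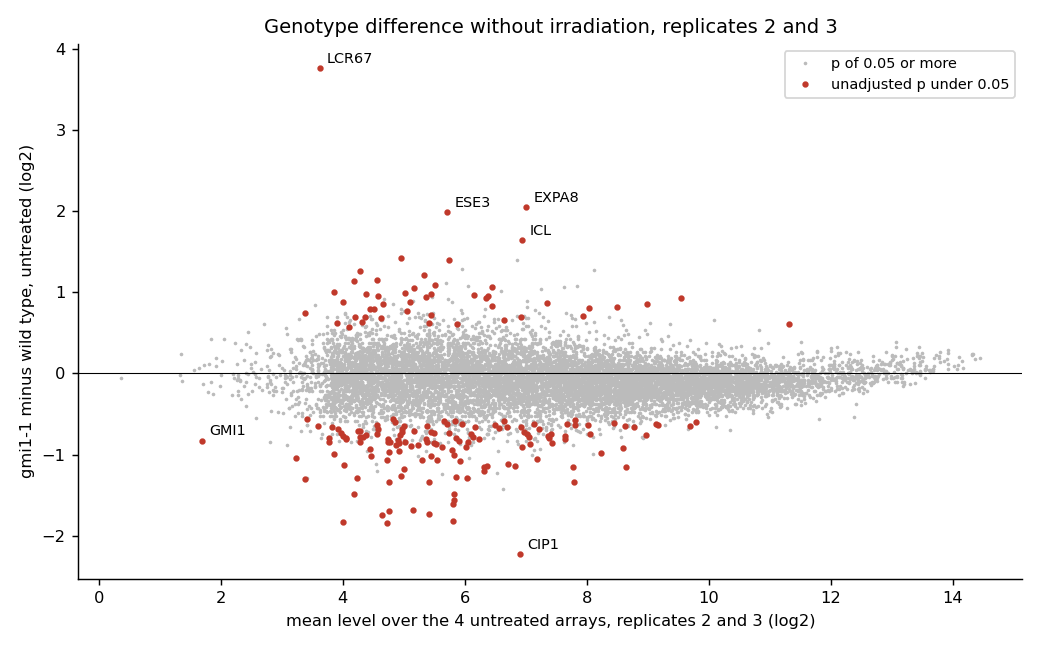
Difference gmi1-1 minus wild type without irradiation (y axis, log2) against the mean level over the 4 untreated arrays numbered 2 and 3 (x axis, log2), 1 point per locus tested. Red points have an unadjusted p under 0.05, and LCR67 at 3.76 is the only locus with an adjusted p under 0.05. More red points lie below 0 (133) than above (48), on values as deposited. The median over all loci was -0.08 on these values and 0 with quantile normalization.

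EXPA8 (AT2G40610), an expansin of cell wall loosening, had the second smallest p with replicates 2 and 3. It had 4.78, 8.31 and 7.77 in gmi1-1 replicates 1, 2 and 3, against 5.86, 5.85 and 6.12 in wild type. The replicates 2 and 3 of gmi1-1 stood above all wild-type arrays and the library with the irradiation-like state below them. The difference was 2.05 with replicates 2 and 3 (SE 0.27, limma adjusted p = 0.208) and 1.01 with replicates 1 to 3. It was called with gmi1-1 untreated replicate 1 left out of the 12-array fit (limma adjusted p = 0.0146). In irradiated seedlings it stood at 4.94 ± 0.11 in gmi1-1 and 4.22 ± 0.07 in wild type (SD, n = 3 each).

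NET4B (AT2G30500), of a family of actin-binding proteins, ranked high in both fits. It had 7.33, 7.04 and 7.36 in gmi1-1, against 7.81, 8.25 and 8.44 in wild type, so that every mutant array, replicate 1 included, lay below every wild-type array. The difference was -0.92 with replicates 1 to 3 and -1.15 with replicates 2 and 3 (limma adjusted p = 1 in both), and -1.82 in irradiated replicates 2 and 3 (adjusted p = 0.103). SUS6, a sucrose synthase, had 4.63, 4.52 and 4.37 in gmi1-1, against 5.04, 5.10 and 5.69 in wild type. MCM10, a replication initiation factor, had 3.94, 3.74 and 4.04 in gmi1-1, against 4.17, 4.51 and 4.83 in wild type. Both showed no overlap between the genotypes, which 804 loci (8.13%) did with gmi1-1 lower and 129 (1.3%) with gmi1-1 higher.

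AT5G53800 had 6.16, 4.70 and 5.09 in gmi1-1, against 5.84, 6.57 and 6.85 in wild type, and was lower in the mutant in replicates 2 and 3 only. Its difference there was -1.82 untreated and -2.1 irradiated. AT5G35940 had 2.45, 3.96 and 3.65 in gmi1-1, against 3.78, 5.91 and 5.38 in wild type, and was lower in the mutant within each replicate number. CDEF1, a cutinase, had 5.72, 6.4 and 6.09 in gmi1-1, against 4.4, 7.44 and 7.33 in wild type, and so ran the other way in replicate 1. OFP16, an OVATE family protein, had 3.61, 5.50 and 5.52 in gmi1-1, against 4.1, 4.58 and 4.47 in wild type. The other loci among the 10 smallest p with replicates 2 and 3 were AT5G38720 (-1.73), AT5G57120 (-1.15) and AT4G15820 (-1.34), all lower in gmi1-1. With replicates 1 to 3 the 10 also held AT5G62550 (-0.76), and, higher in gmi1-1, AT1G27690 (0.88), AT2G32150 (1.04) and AT1G67865 (0.69).

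**Figure D3:**
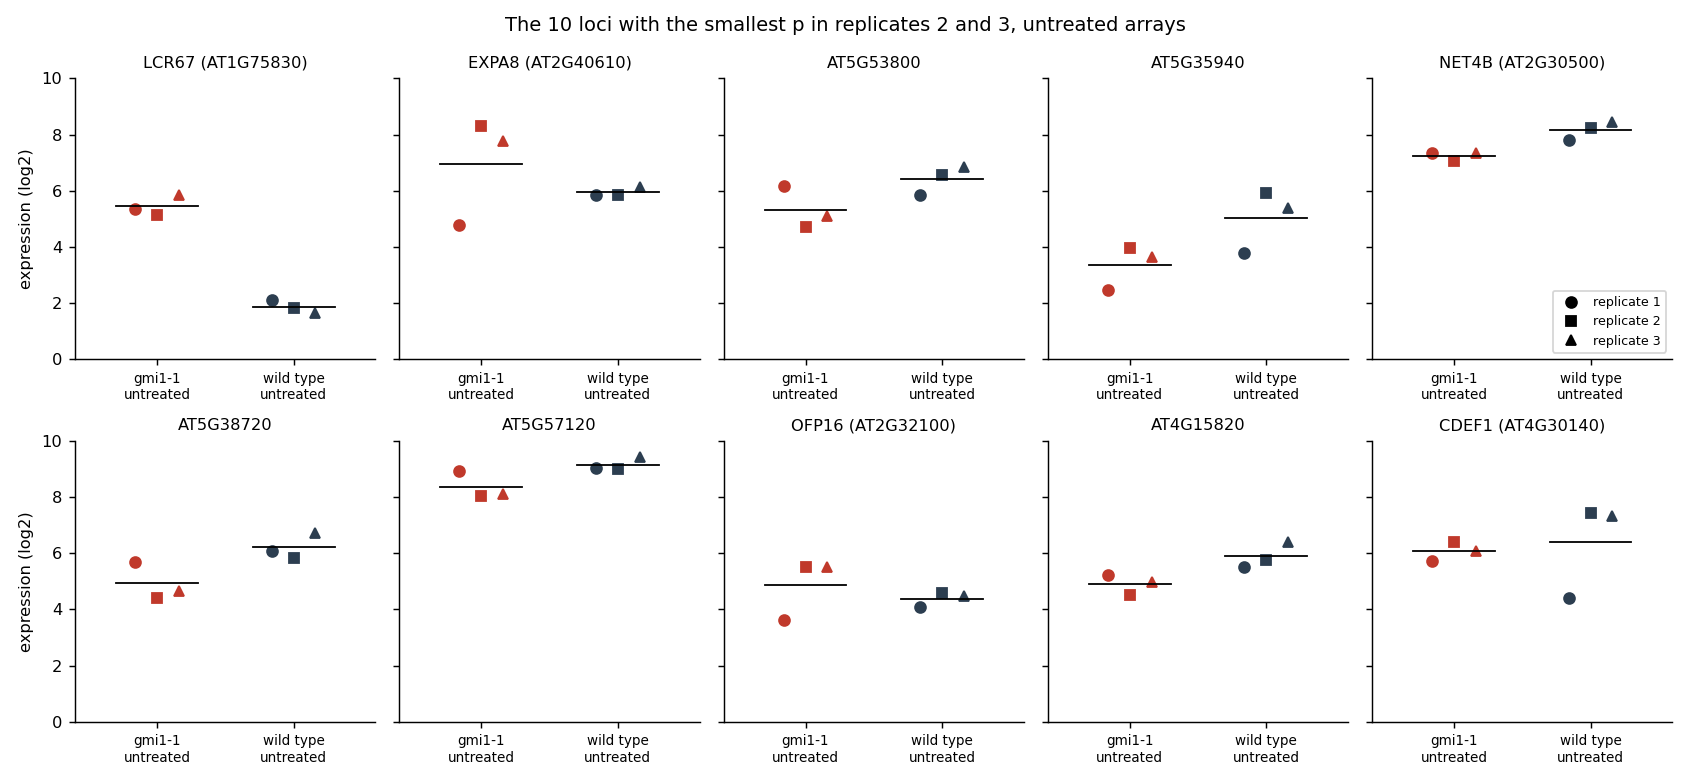
Log2 expression (y axis) of the 10 loci with the smallest p in replicates 2 and 3, on the 3 untreated gmi1-1 arrays (left in each panel) and the 3 untreated wild-type arrays (right); marker shapes give the replicate number and lines the means of 3 arrays. LCR67, NET4B, AT5G38720, AT5G57120 and AT4G15820 keep the genotypes apart over all 3 replicates. In EXPA8, AT5G53800 and OFP16 the gmi1-1 replicate 1 lies away from replicates 2 and 3, and in CDEF1 the wild type replicate 1 does.

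The 25 gene lists drawn up for seedlings held 0 called loci in both fits, and their members are described by counts and medians beside those of all loci. Genes of root hair growth leaned upward in replicates 2 and 3. All 13 tested with replicates 2 and 3 were higher in gmi1-1 (median 0.70, against -0.08 over all loci), and in 6 of the 13 both mutant arrays lay above both wild-type arrays, as 12.4% of all loci did. EXPA18 (AT1G62980), an expansin of root hairs, had 3.15, 6.22 and 5.46 in gmi1-1, against 3.65, 4.76 and 5.04 in wild type (difference 0.94 with replicates 2 and 3, limma adjusted p = 1). PRP3 (AT3G62680), a structural cell wall protein of root hairs, had 5.73, 8.75 and 9.04 in gmi1-1, against 6.18, 8.2 and 7.96 in wild type. The list varied far more with replicate number than with genotype. Over the 12 members tested with all arrays, the median level was 3.32, 8.15 and 7.08 in gmi1-1 replicates 1, 2 and 3, and 4.40, 7.10 and 6.88 in wild type. In replicate 1 it was thus lower in gmi1-1. Of the root markers, RHD2, the NADPH oxidase of root hairs, differed by 0.41, and the root marker list as a whole had a median of 0.01 with replicates 2 and 3.

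Genes of sugar starvation and of gibberellin leaned the same way in these replicates. Of 7 genes of sugar starvation 6 were higher in gmi1-1 (median 0.59), as 36.2% of all loci were, and in 5 both mutant arrays lay above both wild-type arrays, against 12.4% of all loci. TPS8 (AT1G70290), a trehalose phosphate synthase family gene, had 3.27, 6.87 and 7.08 in gmi1-1, against 3.36, 6.2 and 5.63 in wild type. In irradiated replicates 2 and 3 its difference was -0.82. Of the 7 gibberellin genes 6 were higher (median 0.24), with GA3OX1 at 0.34 and GASA1 at 0.30. Among 3 tested genes of the seed list, ICL (AT3G21720), the isocitrate lyase of the glyoxylate cycle, had 7.25, 8.14 and 7.39 in gmi1-1, against 7.05, 6.48 and 5.77 in wild type. MLS (AT5G03860), the malate synthase of the same cycle, had 4.07, 5.29 and 4.83 in gmi1-1, against 4.47, 4.16 and 4.06 in wild type. ICL was higher in gmi1-1 on every array, MLS only in replicates 2 and 3, and PCK1, the carboxykinase that follows the cycle, differed by -0.04. The 9 genes of seed storage, oil bodies and late embryogenesis on the array, such as CRU2 and OLEO1, stayed below 4 on all 6 untreated arrays.

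Genes of G2 and M phase and of aliphatic glucosinolates leaned downward in both fits, beside shares of 69.1% of all loci lower in gmi1-1 with replicates 1 to 3 and 63.5% with replicates 2 and 3. All 11 tested G2 and M genes were lower in gmi1-1 with replicates 1 to 3 (median -0.62), and in 7 every mutant array lay below every wild-type array, against 8.13% of all loci. In the second fit 10 of the 11 were lower (median -0.42). AUR1 (AT4G32830), a mitotic kinase, had 5.71, 5.40 and 5.93 in gmi1-1, against 6.33, 6.53 and 6.42 in wild type (difference -0.81 with replicates 2 and 3, limma adjusted p = 1). HIK (AT1G18370), a kinesin of the phragmoplast, had 5.57, 5.19 and 5.75 in gmi1-1, against 5.98, 6.15 and 6.38 in wild type. The median level of the list was 5.71 in the library with the irradiation-like state, below 6.24 and 6.37 in gmi1-1 replicates 2 and 3, and 6.70, 6.77 and 6.76 in wild type. CDKB2;2 (AT1G20930), a mitotic kinase, was the exception, at 7.10 and 6.93 in gmi1-1 replicates 2 and 3 against 6.84 and 7.04 in wild type.

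All 12 tested glucosinolate genes were lower in gmi1-1 in both fits (median -0.36 in each). GSTF11 (AT3G03190), a glutathione transferase of the pathway, had 6.19, 6.55 and 7.64 in gmi1-1, against 7.10, 7.61 and 7.84 in wild type. SOT16 (AT1G74100), a sulfotransferase of the last step of the core structure, had 9.92, 10.14 and 10.55 in gmi1-1, against 10.32, 10.59 and 10.83 in wild type. Within each replicate number both were lower in gmi1-1, though the 3 arrays of the groups overlapped. Both mutant arrays numbered 2 and 3 lay below both wild-type arrays in 9 of 12, against 34.3% of all loci. With replicates 1 to 3 every mutant array lay below every wild-type array in 0 of 12, against 8.13% of all loci. In irradiated replicates 2 and 3 GSTF11 was at 0.57 and SOT16 at -0.41.

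Lists of iron, hypoxia and flavonoid genes had medians under that of all loci in both fits. Of all loci 69.1% were lower in gmi1-1 with replicates 1 to 3 and 63.5% with replicates 2 and 3. All 10 tested genes of iron and copper were lower in gmi1-1 with replicates 1 to 3 and all 9 with replicates 2 and 3 (median -0.22 in both). Among them was bHLH39, a regulator of iron uptake, at -0.58 and -0.41. Every mutant array lay below every wild-type array in only 0 of the 10 and 2 of the 9, against 8.13% and 34.3% of all loci. Of 8 hypoxia genes 7 were lower in each fit (medians -0.19 and -0.31), with LBD41, a hypoxia-induced transcription factor, at -0.56 in the second. Of the flavonoid genes 6 of 8 and 6 of 7 were lower (medians -0.20 and -0.43), the first near the 69.1% of all loci, with TT7, the flavonoid hydroxylase, at -0.72 in replicates 2 and 3. TT7 had 6.26, 7.37 and 7.69 in gmi1-1, against 5.65, 8.37 and 8.13 in wild type, so replicate 1 ran the other way. The touch and early stress list had a median of 0.79 with replicates 1 to 3 and 0.12 with replicates 2 and 3, and its median level was 7.32 in the library with the irradiation-like state against 4.45 and 4.51 in gmi1-1 replicates 2 and 3.

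The remaining lists are given by their medians with replicates 2 and 3, beside -0.08 over all loci. The medians were -0.13 for SMC and cohesin (4 tested), -0.02 for heat shock (9), -0.17 for oxidative and mitochondrial stress (8), -0.08 for the unfolded protein response (3) and 0.05 for jasmonate (3). They were -0.04 for salicylate and defence (5), 0.23 for the circadian clock (9), -0.03 for phosphate starvation (7), -0.01 for nitrate (10) and 0.21 for photosynthesis (9). Those of auxin (12) and of abscisic acid, drought and cold (5) were 0.10 and -0.07, and that of the shoot markers (3) was -0.13. SMC5 (AT5G15920), of the SMC5 and SMC6 complex that acts in recombination, had 3.70, 4.23 and 4.13 in gmi1-1, against 3.85, 4.54 and 4.17 in wild type. SCC3 (AT2G47980), a cohesin subunit, had 6.22, 6.49 and 6.32 in gmi1-1, against 6.36, 6.84 and 6.51 in wild type. Their differences, -0.18 and -0.27 with replicates 2 and 3, were smaller than the typical 95% interval.

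**Figure D4:**
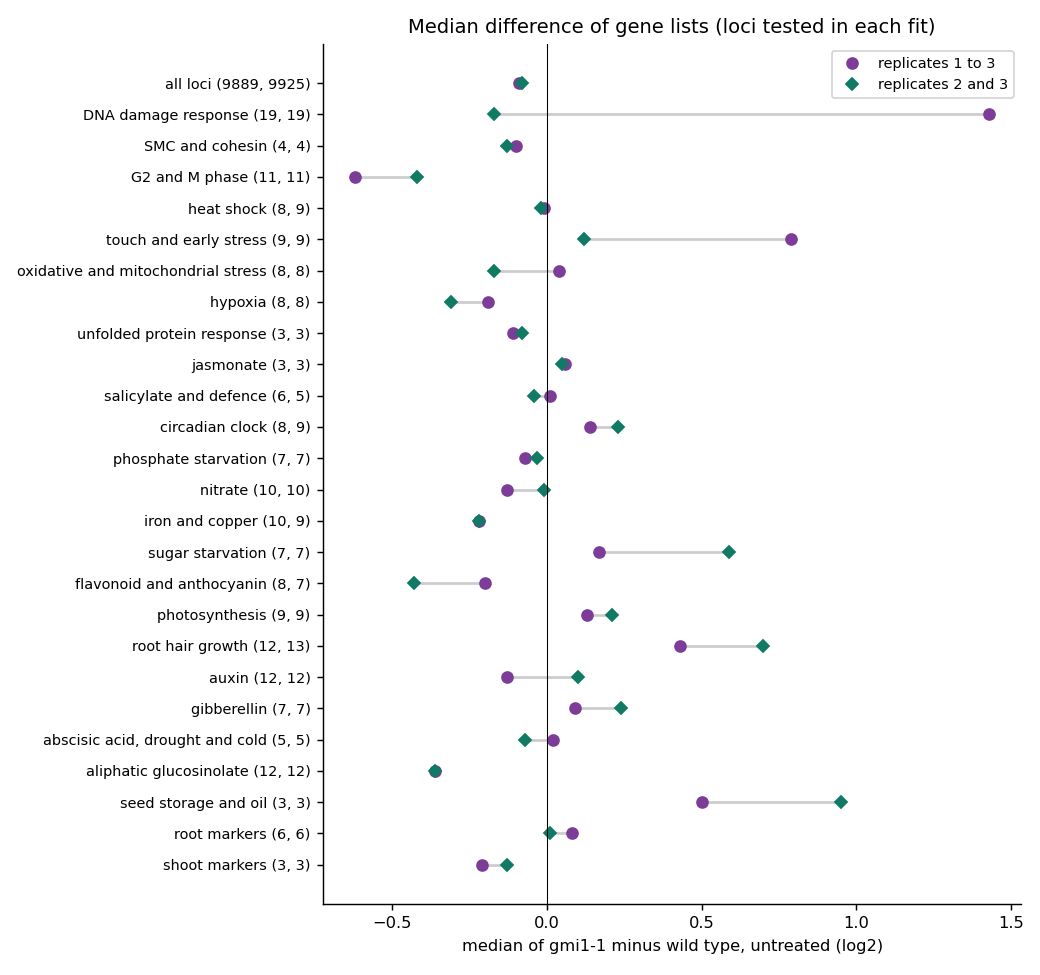
Median difference gmi1-1 minus wild type without irradiation (x axis, log2) of each gene list (y axis, with the number of loci tested in each fit), with replicates 1 to 3 (circles) and replicates 2 and 3 (diamonds). The damage response list lies at 1.43 with replicates 1 to 3 and at -0.17 with replicates 2 and 3, while the glucosinolate list lies at -0.36 in both.

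Genes next to the insertion did not pass either. Of the 10 measured loci on each side of GMI1 on chromosome 5, 13 of 20 were tested, with differences from -0.52 to 0.83 with replicates 1 to 3 and from -0.58 to 0.12 with replicates 2 and 3. SOS3 (AT5G24270), the calcium sensor of salt tolerance and the nearest measured neighbour on one side, had 5.29, 4.98 and 5.22 in gmi1-1, against 5.70, 5.94 and 5.42 in wild type. Every mutant array thus lay below every wild-type array, with a difference of -0.52 with replicates 1 to 3 and -0.58 with replicates 2 and 3 (limma adjusted p = 1 in both).

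The 133 loci that were lower in untreated gmi1-1 at an unadjusted p under 0.05 with replicates 2 and 3 were looked up in the other arrays. The irradiated arrays numbered 2 and 3 had entered the choice of loci through the filter and the shared spread, though not through the untreated difference, and the untreated pair numbered 1 had not entered it. In irradiated replicates 2 and 3, 131 of the 133 (98.5%) were lower in gmi1-1 too, with a median of -1, against 83.1% and -0.35 over all loci. The share was 95.5% in each of the irradiated pairs numbered 2 and 3 on its own, where 59.2% and 83.9% of all loci were lower. In the untreated pair numbered 1, which holds the library with the irradiation-like state, it was 60.2%, against 65.8% of all loci. Of the 48 loci that were higher, 29 (60.4%) were higher in irradiated replicates 2 and 3, against 16.6% of all loci, and 17 (35.4%) in the untreated pair numbered 1, against 32.9%.

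From the lower loci 4 genes are given as examples, chosen after their values had been seen. CIP1 (AT5G41790), a protein that binds the light signalling regulator COP1, had 7.83, 4.78 and 6.81 in gmi1-1, against 7.89, 6.88 and 9.18 in wild type, with a difference of -2.23 untreated and -3.55 irradiated in replicates 2 and 3. LINC3 (AT1G68790), a protein of the plant nuclear lamina, had 6.26, 3.29 and 4.27 in gmi1-1, against 6.45, 4.51 and 6.53 in wild type. Within each of the 2 replicate numbers both were lower in gmi1-1, and the wild-type arrays numbered 2 and 3 differed from each other by more than the genotypes did. FKBP53 (AT4G25340), a histone chaperone, had 7.82, 6.61 and 7.64 in gmi1-1, against 8, 8.39 and 8.53 in wild type. MBD10 (AT1G15340), a methyl-CpG-binding domain protein, had 7.51, 7.40 and 7.56 in gmi1-1, against 7.80, 7.90 and 8.34 in wild type. Both kept the genotypes apart in all 3 replicates. Their irradiated differences with replicates 2 and 3 were -2.29 and -1.44 (limma adjusted p = 0.119 and 0.118).

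**Figure D5:**
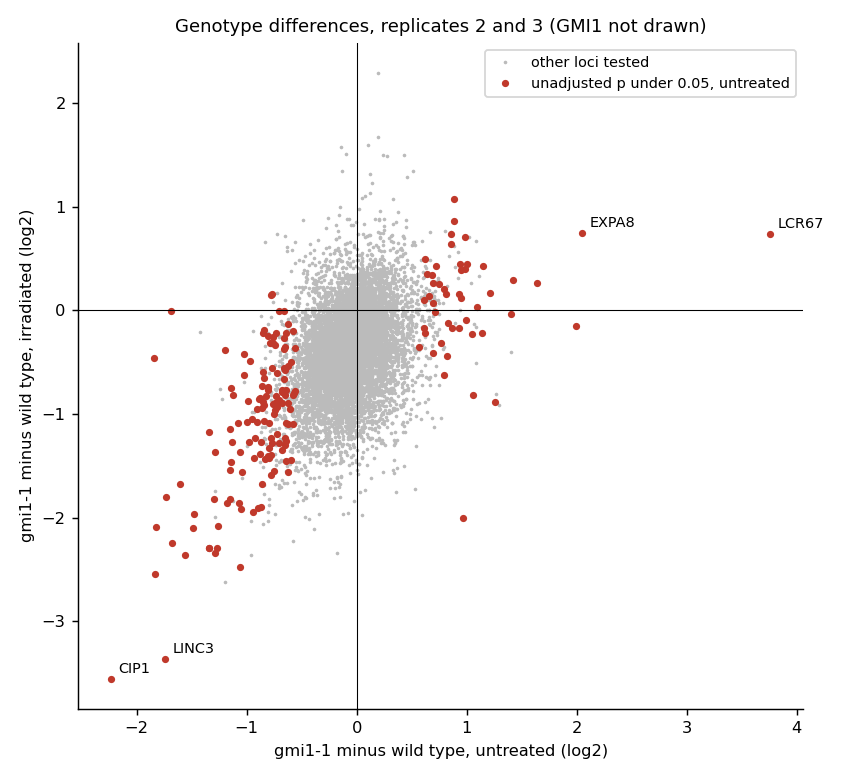
Difference gmi1-1 minus wild type in irradiated seedlings (y axis, log2) against that in untreated seedlings (x axis, log2), replicates 2 and 3, 1 point per locus tested except GMI1, which lies off the scale at -9.24 irradiated. Red points have an unadjusted p under 0.05 untreated; of the 133 at the left, 131 lie below 0 on the irradiated axis, where 83.1% of all loci lie.

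Gene length moved with the differences of replicates 2 and 3, and 1 array stood apart in a measure of RNA quality. The 133 lower loci had a median RefSeq gene length, introns included, of 2864 bases and the 48 higher loci one of 1378 bases, against 2368.5 bases over the loci tested. In 4 classes of gene length of equal size, from short to long, 0.283%, 1.29%, 1.73% and 2.06% of loci were lower at an unadjusted p under 0.05, and 1.33%, 0.363%, 0.0807% and 0.162% were higher. With replicates 2 and 3 the median untreated difference in these classes was -0.02, -0.09, -0.11 and -0.11. The irradiated one was -0.12, -0.29, -0.41 and -0.62. In the untreated pair numbered 1 the medians were -0.13, -0.10, -0.10 and -0.14, so they did not move with length there. The GAPDH control probe sets gave a 5' minus middle difference of -0.17, -0.39 and -0.38 in untreated gmi1-1 replicates 1, 2 and 3, against -0.37, -0.34 and -0.28 in untreated wild type. It was -0.32, -0.31 and -1.30 in irradiated gmi1-1, against -0.30, -0.34 and -0.47 in irradiated wild type. Their part in the differences was not tested.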

How the data were processed

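RNA of whole seedlings was hybridised to 12 Affymetrix arrays, 3 biological replicates per group by the labels. The deposited log2 values had been summarised with GCRMA by the authors, per the submitters' processing notes. The sources name neither its version nor the array design. There are 16947 loci, named by locus tag, beside 2 control probe sets. Of these loci 16851 matched RefSeq (TAIR10.1), and 7081 had a symbol. Every locus-wise test used limma 3.58.1 in R 4.3.3 (lmFit and eBayes, 4 group means, two-sided, Benjamini-Hochberg over all loci tested). The 12-array fit kept loci at a log2 value of 4 or more on at least 3 arrays, and the 8-array fit on at least 2. GMI1 passed this filter only through the irradiated wild-type arrays, the only arrays on which it reached 4. The script was tested on simulated data, drawn independently and with the spread of each locus held at or below the median spread. That is easier than the real arrays, so it does not show how many real differences would be found. Precision is limited by the number of arrays.

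The named genes are GMI1, the 10 smallest p of each fit, the 2 members of each list with the smallest p, and 5 damage genes; another gene of that rule is not reported here. Others are named as chosen after their values were seen, or stand as examples of a list. The members, the 25 lists (350 loci, 265 on the array) and the tests were chosen with earlier results of these data known. Same-numbered untreated arrays of the 2 genotypes deviated together from their group means (r = 0.67, 0.60 and 0.54 for replicates 1, 2 and 3). Between unlike numbers r was -0.59 to 0.40, with 0.35 and 0.40 between replicates 2 and 3. Deviations cancel out within a group, which pushes r between unlike numbers down. This is therefore weak ground for pairing replicates 2 and 3 by number. The main fits did not pair the arrays, and like-numbered arrays were set side by side only in description. A replicate block by number was fitted as an alternative. It gave 84 loci at an unadjusted p under 0.05 in limma with replicates 1 to 3 and 197 with replicates 2 and 3, where the main fits gave 42 and 181. Other alternatives were the filter, the normalization, the prior, array weights, the samples fitted and left-out arrays. No sequences were used.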

Additional observations from a re-analysis of the deposited data

Results flagged for a closer look

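The genotype difference of GMI1 changed with irradiation: with replicates 2 and 3 it was more negative in irradiated than in untreated seedlings by a log2 change of -8.41 (limma interaction, adjusted p = 0.000119), since its transcript was high only in irradiated wild type; with the other groups near background, the size is approximate. With replicates 1 to 3 the change was -8.16 (adjusted p = 8.5e-07). GMI1 was the only locus with a change past the threshold in either fit. Groups of 3 arrays are too small for the test of single stray arrays.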

How the results depend on the processing

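The count of 1 called locus became 0 in several settings. With replicates 1 to 3 it was 0 with a filter at 6 (19 loci at an unadjusted p under 0.05 in limma), where LCR67 is not tested, and with median centring (52; LCR67 adjusted p = 0.0666). It was also 0 for the untreated arrays alone with a replicate block (1053; 0.115), a setting added after the data were seen. With replicates 2 and 3 it was 0 with a filter at 6 (116), quantile normalization (207; 0.18), median centring (219; 0.0959), the untreated arrays alone (1326; 0.134) and these with a replicate block (1715; 0.248). Array weights gave 5 calls with replicates 2 and 3, of which 3 rose (LCR67, OFP16, EXPA8) and 2 fell (AT5G35940, AT5G53800). With each untreated array left out in turn, with or without the filter, or, with the filter, gmi1-1 irradiated replicate 1 or 3 left out, it ran from 0 to 2 with replicates 1 to 3. With replicates 2 and 3 it was 0 in the same settings (of the irradiated arrays, gmi1-1 replicate 3 alone was left out). Other irradiated arrays were not left out. With the filter, leaving out an untreated gmi1-1 array drops LCR67 from the test. A group left with 1 array is assumed to vary like the others. With the replicate block in the full fits LCR67 kept its call (adjusted p = 0.0334 and 0.0227), and no call was gained. In limma with an intensity trend or a robust prior it was kept too (0.0107 and 0.0203 with replicates 1 to 3, 0.0094 and 0.0343 with replicates 2 and 3).

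Signs turned for BRCA1 (-0.11), PARP2 (-0.59) and CYCB1;1 (-0.32) without the library labelled gmi1-1 untreated replicate 1, also with both gmi1-1 libraries numbered 1 left out, while their highest values with another array left out were 3.81, 3.04 and 1.91. CYCB1;1 turned (-0.11) with array weights too. With replicates 2 and 3, quantile normalization turned LOX2 (0.07) and ABI1 (0.03). Without gmi1-1 untreated replicate 2 signs turned for LOX2 (0.25), PAD3 (0.08) and EXPA7 (-0.2), whose values without replicate 3 were -0.35, -0.6 and 1.63. SMC5 turned (0.01) without wild type untreated replicate 2 (-0.36 without replicate 3), and RD22 turned (0.01) without replicate 3 (-0.28 without replicate 2). With all 3 wild-type replicates beside gmi1-1 replicates 2 and 3 they turned for LBD41 (0.18), NIA1 (-0.02), NIA2 (-0.01), TT7 (0.15), TT5 (0.06), RD22 (0.05) and ABI1 (0.26). None of these passed the test, and the causes were not tested. The auxin list's median was -0.13 with replicates 1 to 3 and turned to 0.10 with replicates 2 and 3. Of 1539 alternative values of named loci, 1482 kept their direction and side of the threshold, and 29 turned.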
